A study of Mus musculus with 5 samples.

Results

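Chemokines are small secreted proteins that draw leukocytes along a concentration gradient. Each acts on seven-transmembrane receptors of the target cell, and the spacing of the first cysteines gives the classes CXC, CC and CX3C. In mammary tumours they come from epithelial, stromal and myeloid cells and are known for bringing in neutrophils, monocytes and lymphocytes.

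Transcripts of 10 chemokines were followed, selected by gene symbol: the CXC chemokines Cxcl1, Cxcl2, Cxcl5, Cxcl10, Cxcl12, Cxcl14 and Cxcl16, the CC chemokines Ccl2 and Ccl7, and the CX3C chemokine Cx3cl1. All 10 were found among the 38918 features measured, and low values were kept. RNA was sequenced from 5 mammary tumours of SV40-transgenic FVB mice at 20 weeks of age. In the maternal BSp group, with 3 libraries, the chow of the dams held 26% broccoli sprouts (BSp), given while pregnant and nursing, that is from conception until weaning. In the control group, with 2 libraries, the dams ate the control diet, and the offspring of both groups received no treatment themselves. The series asks whether the diet of the dam changes transcription in tumours of her offspring. The promoter of the SV40 transgene is not given in the labels, and separate animals are not stated for the libraries, so p-values measure only the spread between these libraries.

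Values are reads per gene that the authors scaled to 1 common total per library, called normalised reads below, and the whole reads behind them were recovered. Depth lay between 8459029 and 61663199 reads in maternal BSp libraries and was 1106813 and 3909583 reads in control replicates 1 and 2, a 55.7-fold range in which depth and group cannot be told apart. In control replicate 1 a value of 1 is a single read. Luminal epithelial markers were present in every library, with a summed value of 4035 to 4997 for the 5 genes. Salivary gland transcripts stood at a summed value of 1859 in maternal BSp replicate 1 and 421 in control replicate 1, against 1.13 to 19.4 in the other libraries. Milk protein transcripts stood at 1120 in maternal BSp replicate 3, against 2.98 to 18.8 in the others. Basal epithelial markers summed to 1407, 1592 and 258 in maternal BSp replicates 1, 2 and 3, and to 3171 and 2055 in control replicates 1 and 2. All 5 of them had a lower estimate in maternal BSp, 3 at an unadjusted p under 0.05 and none passing. Of all tested genes 3.14% were lower at an unadjusted p under 0.05, and 63.2% had a higher estimate. Lars2 and Gm26917 together took 0.770%, 0.117% and 1.13% of the reads in maternal BSp replicates 1, 2 and 3, and 9.40% and 4.09% in control replicates 1 and 2, so this share separated the groups. Mitochondrial transcripts took 11.6%, 2.41% and 9.03% in maternal BSp replicates 1, 2 and 3, and 2.58% and 2.56% in control replicates 1 and 2. In bulk tumour RNA fewer cells of a type and less RNA per cell cannot be told apart.

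None of the chemokine transcripts passed the test between the groups. Of the 10 transcripts 7 had a mean of at least 10 and were tested together with the other genes of the table, 9870 in all. With limma on log2(value + 1) the adjusted p of these 7 lay between 0.546 and 0.978. Over all tested genes 0 passed, or 0%, and 1101 genes (11.2%) had an unadjusted p under 0.05, 8.01% higher and 3.14% lower in maternal BSp, among them 0 of the 7 chemokines. The edgeR quasi-likelihood test on the recovered reads also called 0 genes, with 971 at an unadjusted p under 0.05, and DESeq2 called 100 genes, with 1163 at an unadjusted p under 0.05. None of the 7 was called by either. Cx3cl1 had an unadjusted p of 0.0394 with edgeR and 0.0268 with DESeq2, and neither passed after adjustment (adjusted p 0.326 with DESeq2). The groups did not overlap for Ccl7 and Cx3cl1, or 2 of the 10 transcripts and 1 of the 7 tested, against 33% of tested genes. Of the 7 tested chemokines 2 were higher and 5 lower in maternal BSp, with a median log2 fold change of -0.14, against 0.21 for all tested genes, of which 63.2% were higher. The median of all genes moved to -0.01 with upper quartile scaling and to 0.03 with median-of-ratios scaling, and none of the 7 changed sign with either or with TMM scaling.

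**Figure D1:**
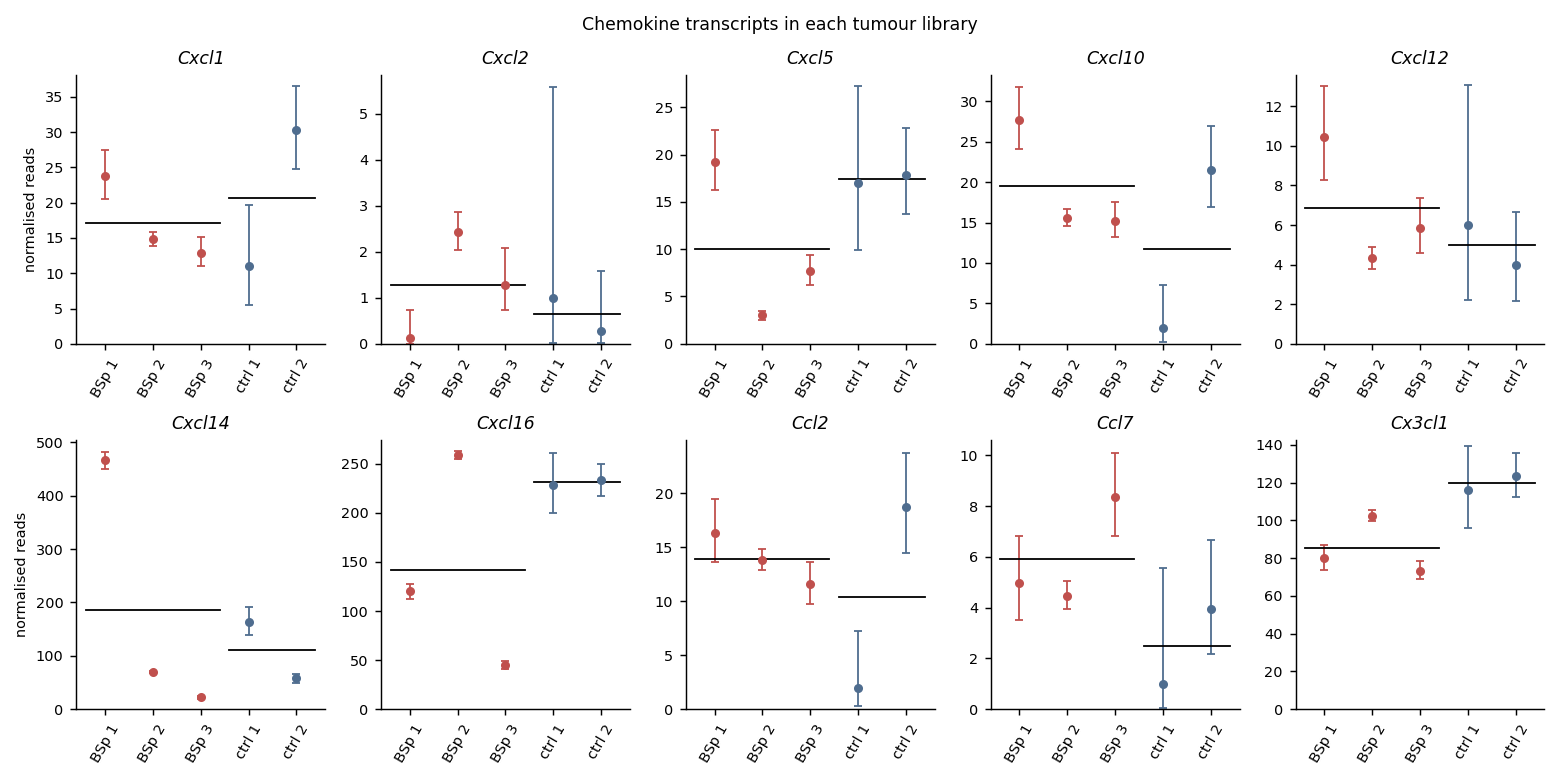
Normalised reads of each chemokine transcript (y axis, linear from 0) in the 3 maternal BSp libraries (red) and the 2 control libraries (blue). Points are libraries, vertical bars are exact 95% Poisson intervals for counting error only, and black lines are group means. Cx3cl1 lay lower in every maternal BSp library than in both controls, and Ccl7 higher.

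As a group the 10 transcripts made up 69.5, 44.3 and 18.4 of every 100000 reads in maternal BSp replicates 1, 2 and 3, and 49.6 and 46.1 in control replicates 1 and 2. Both controls thus lay inside the range of the maternal BSp libraries, whose replicate 3 was the lowest of all. Cxcl16, Cxcl14 and Cx3cl1 together took 86.6%, 88.1% and 69.1% of this sum in maternal BSp replicates 1, 2 and 3, and 92.7% and 81.1% in control replicates 1 and 2. Which of the 3 led differed: Cxcl14 gave 60.6% of the sum in maternal BSp replicate 1, Cxcl16 gave 52.9% in replicate 2, and Cx3cl1 gave 36.1% in replicate 3, while Cxcl16 led in both controls with 41.7% and 45.7%.

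Levels of different genes were compared per length, as normalised reads per kb of annotated exon. Cxcl14 came first at 85.3 ± 99.2 per kb (SD, n = 5 libraries), followed by Cxcl16 at 58.7 ± 30.2 and Cx3cl1 at 25.2 ± 5.56. Cxcl14 exceeded Cxcl16 in only 2 of 5 libraries, so their order is not settled beyond their spread. Cx3cl1 exceeded the next gene, Ccl2, in 5 of 5 libraries. A middle tier held Ccl2 at 11.0 ± 5.66 per kb, Cxcl1 at 9.90 ± 4.37, Cxcl10 at 7.29 ± 4.24, Cxcl5 at 6.95 ± 3.86 and Ccl7 at 5.68 ± 3.27. Within that tier each SD exceeded the gap to the neighbouring mean. Cxcl12 at 0.749 ± 0.317 per kb and Cxcl2 at 0.495 ± 0.444 lay lowest. Ccl7 exceeded Cxcl12 in 5 of 5 libraries. The Cxcl12 length of 8176 bases merges the exons of all annotated isoforms and so gives a low value per kb.

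**Figure D2:**
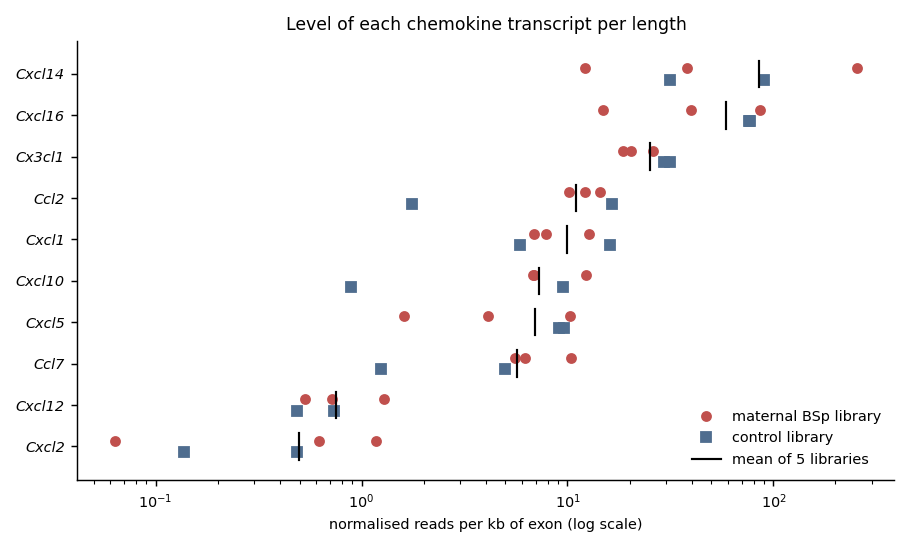
Level of each chemokine transcript per kb of exon (x axis, log scale) in maternal BSp libraries (red circles) and control libraries (blue squares), with the mean of the 5 libraries as a black line. Cxcl14, Cxcl16 and Cx3cl1 have the highest means, and Cxcl12 and Cxcl2 the lowest.

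Cxcl1, Cxcl2 and Cxcl5 are the neutrophil attractants of the set, known to act through the receptor Cxcr2. On GRCm38 they lie on the plus strand of chromosome 5, with other chemokine genes between Cxcl5 and Cxcl1. Cxcl5 lies at chr5:90759360-90761624, Cxcl1 at chr5:90891241-90893115 and Cxcl2 at chr5:90903871-90905938, which leaves 129.6 kb between Cxcl5 and Cxcl1 and 10.8 kb between Cxcl1 and Cxcl2. Genes of this kind and Cxcl10 are known targets of NF-kB, and Cxcl10 also of interferon through an interferon-stimulated response element (ISRE). RefSeq promoters on GRCm38.p6 were at hand for 6 of the 10 chemokines. From 250 to 31 bases before the start, 3 of these 6, namely Cxcl1, Cxcl2 and Cxcl10, held the kB-like letters GGG, any 3 bases, then TTCC on either strand, against 3.84% of 32851 promoter windows of the same length. The ISRE-like letters GAAA, any 2 bases, then GAAAC, also searched on both strands, were found in 1 of the 6, Cxcl10, against 0.588% of the windows. These windows are shown to compare Cxcl1 and Cxcl2, and both with Cxcl10, 5′ to 3′ on the strand of the gene with the matches in capitals. Matches on opposite strands overlap in the run GGGAATTTCCC of Cxcl1 and of Cxcl2.
Cxcl1, chr5:90890995-90891214, plus strand: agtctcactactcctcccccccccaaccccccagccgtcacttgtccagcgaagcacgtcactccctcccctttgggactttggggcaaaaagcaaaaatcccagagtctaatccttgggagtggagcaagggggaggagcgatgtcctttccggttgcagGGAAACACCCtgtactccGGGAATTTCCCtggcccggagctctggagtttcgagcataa
Cxcl2, chr5:90903649-90903868, plus strand: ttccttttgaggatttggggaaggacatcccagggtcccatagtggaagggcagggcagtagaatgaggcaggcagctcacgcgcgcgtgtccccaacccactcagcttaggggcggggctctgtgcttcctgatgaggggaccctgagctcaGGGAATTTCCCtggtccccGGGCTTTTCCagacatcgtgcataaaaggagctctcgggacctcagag
Cxcl10, chr5:92348920-92349139, minus strand: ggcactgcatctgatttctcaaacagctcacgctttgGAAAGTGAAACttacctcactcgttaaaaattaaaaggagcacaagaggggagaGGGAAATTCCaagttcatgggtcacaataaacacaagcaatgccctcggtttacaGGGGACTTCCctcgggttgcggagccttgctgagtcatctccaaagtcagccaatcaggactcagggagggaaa

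Cxcl1 measured 23.8, 14.8 and 12.9 normalised reads in maternal BSp replicates 1, 2 and 3, and 11 and 30.3 in control replicates 1 and 2. The controls enclosed the 3 maternal BSp libraries, so the groups overlapped. Its log2 fold change was -0.14 (SE 0.55, limma adjusted p = 0.936). Without control replicate 2 it was 0.55.

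Cxcl2, known as an early product of myeloid cells, was close to the limit of detection. It measured 0.131, 2.42 and 1.28 normalised reads in maternal BSp replicates 1, 2 and 3, and 1 and 0.283 in control replicates 1 and 2. A single read stood behind maternal BSp replicate 1 and behind each control, while maternal BSp replicate 2 had 135 reads and replicate 3 had 16. A difference between the groups was not detectable at this depth. With no filter on low values its limma adjusted p was 0.802.

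Cxcl5, known as an epithelial product, measured 19.2, 3.00 and 7.70 normalised reads in maternal BSp replicates 1, 2 and 3, and 17 and 17.8 in control replicates 1 and 2. The controls differed by little, while the maternal BSp libraries covered a 6.42-fold range with replicate 1 above both controls. The log2 fold change was -1.05 (SE 0.74, limma adjusted p = 0.590), with a 95% interval from -2.76 to 0.66. It was -0.47 without maternal BSp replicate 2 and lay between -1.68 and -0.22 over the 18 alternatives. The ratio of Cxcl1 to Cxcl5 within a library, which scaling cannot change, was 1.24, 4.95 and 1.68 in maternal BSp replicates 1, 2 and 3, and 0.647 and 1.70 in control replicates 1 and 2. Transcripts of neutrophils were scarce: 0 of the 8 neutrophil markers reached a mean of 10, Ly6g and Ngp were at or near 0, and the 8 summed to 9.39 to 15.0 in maternal BSp libraries and to 11.6 and 12 in controls.

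Cxcl10, which is induced by interferon and attracts T and NK cells through Cxcr3, measured 27.7, 15.6 and 15.2 normalised reads in maternal BSp replicates 1, 2 and 3, and 2 and 21.5 in control replicates 1 and 2. Control replicate 1 was the lowest library and control replicate 2 lay within the maternal BSp range, so the groups overlapped. The low value rested on 2 reads, with an exact 95% Poisson interval of 0.242 to 7.22, which lies below the interval of every other library. For Cxcl10 the log2 fold change was 1.27 (SE 0.84, limma adjusted p = 0.566), and -0.19 without control replicate 1. Its gene (chr5:92346638-92348889, minus strand) shares 133 exon bases with Art3 on the opposite strand, which averaged 2.56 normalised reads, and the strand setting of the counting is not given.

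Cxcl9, another ligand of Cxcr3, was named after its values were seen because it differed from Cxcl10. It measured 4.71, 1.01 and 6.34 normalised reads in maternal BSp replicates 1, 2 and 3, and 0 and 43.3 in control replicates 1 and 2. It thus stood above Cxcl10 only in control replicate 2, while Cxcl10 was 5.89, 15.5 and 2.41 times Cxcl9 in maternal BSp replicates 1, 2 and 3 and 0.497 times in control replicate 2. The value of 0 in control replicate 1 allows up to 3 normalised reads, or 3.69 by its exact 95% Poisson interval. The limma adjusted p of Cxcl9 was 0.901.

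Ccl2 and Ccl7, which attract monocytes through Ccr2, are neighbours on the plus strand of chromosome 11, 8.26 kb apart, at chr11:82035571-82037453 and chr11:82045712-82047525. Ccl2 measured 16.4, 13.8 and 11.6 normalised reads in maternal BSp replicates 1, 2 and 3, and 2 and 18.7 in control replicates 1 and 2. As with Cxcl10, control replicate 1 lay lowest, on 2 reads, and control replicate 2 lay at the top, so the groups overlapped. The log2 fold change of Ccl2 was 0.94 (SE 0.82, limma adjusted p = 0.662) and -0.41 without control replicate 1.

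Ccl7 measured 4.97, 4.47 and 8.34 normalised reads in maternal BSp replicates 1, 2 and 3, and 1 and 3.96 in control replicates 1 and 2. Every maternal BSp library lay above both controls, which rested on 1 and 14 reads, and the counting intervals of maternal BSp replicate 2 (3.93 to 5.06) and control replicate 2 (2.17 to 6.65) overlapped. On the log2 scale the fold change was 1.10, and with no filter on low values its limma adjusted p was 0.607. With upper quartile, median-of-ratios or TMM scaling the groups overlapped.

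Cxcl10 and Ccl2 were the closest pair among the 10 in their pattern over the libraries. Their log2 profiles, each centred on its mean, differed by a root mean square of 0.25, against 0.55 for the next pair, Cxcl1 and Cx3cl1, and 1.90 for the least alike, Cxcl10 and Cxcl14. This measure is also small where both transcripts vary little. Within a library the ratio of Cxcl10 to Ccl2 stayed between 1.12 and 1.70 in maternal BSp and was 1 and 1.15 in control replicates 1 and 2. In control replicate 1 both transcripts rested on 2 reads each. Control replicate 1 was the lowest library for Cxcl1, Cxcl10, Ccl2 and Ccl7, and likewise for 25.8% of all tested genes. Of the 8 macrophage markers found, Cd14 and Cd68 were also lowest in that library and the other 6 were not. The 8 summed to 700, 1534 and 651 in maternal BSp replicates 1, 2 and 3, and to 1094 and 1151 in control replicates 1 and 2.

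Cxcl12 and Cxcl14 are produced without an inflammatory signal in many tissues. Cxcl12, a stromal ligand of Cxcr4 and of the scavenging receptor Ackr3, lies at chr6:117168535-117181367. It measured 10.5, 4.33 and 5.86 normalised reads in maternal BSp replicates 1, 2 and 3, and 6 and 3.96 in control replicates 1 and 2. The groups overlapped, and only maternal BSp replicate 1 stood above the rest. Its log2 fold change was 0.34, and with no filter on low values its limma adjusted p was 0.844. Fibroblast markers, whose 7 genes summed to 734, 1070 and 297 in maternal BSp replicates 1, 2 and 3 and to 1076 and 317 in control replicates 1 and 2, had another order over the libraries.

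Cxcl14, made by epithelia and fibroblasts and with no agreed receptor, lies at chr13:56288643-56296551. It varied most of the 10 within maternal BSp. It measured 466, 69.7 and 22.3 normalised reads in maternal BSp replicates 1, 2 and 3, and 164 and 57.5 in control replicates 1 and 2. The maternal BSp libraries spanned a 20.9-fold range and enclosed both controls. For Cxcl14 the log2 fold change was -0.10 (SE 1.09, limma adjusted p = 0.978), with a 95% interval from -2.61 to 2.41. The spread of Cxcl14 over the 5 libraries, an SD of 1.64 on the log2 scale, exceeded that of 97.9% of tested genes, whose median was 0.52. Cxcl10, Ccl2, Cxcl16 and Cxcl5 also exceeded over 90% of genes in spread, and Cx3cl1 only 16.8%. The libraries highest in Cxcl14, maternal BSp replicate 1 and control replicate 1, were also those with salivary gland transcripts. Among these markers Smr3a stood at 1032 and 92 normalised reads in those libraries, and the part of salivary tissue in the Cxcl14 level was not tested. With both libraries left out, a choice made after seeing the data, the log2 fold change was -0.53 on 2 maternal BSp libraries and 1 control. Over all 19 alternatives it ran from -1.28 to 1.48, so no direction can be given for Cxcl14.

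Cxcl16 and Cx3cl1 differ from the other chemokines in that both are made as transmembrane proteins with a mucin-like stalk, which the proteases Adam10 and Adam17 can cut to release the chemokine. Cxcl16 lies at chr11:70453983-70459984 on the minus strand and binds Cxcr6. It measured 120, 259 and 44.8 normalised reads in maternal BSp replicates 1, 2 and 3, and 229 and 233 in control replicates 1 and 2. The controls differed by 1.02-fold, while maternal BSp replicate 2 lay above them and replicates 1 and 3 below. The log2 fold change was -1.04 (SE 0.65, limma adjusted p = 0.546), with a 95% interval from -2.53 to 0.45. It was -0.39 without maternal BSp replicate 3 and -1.64 without replicate 2 (unadjusted p 0.00965, limma adjusted p 0.228), the ends of the range over the 19 alternatives. With upper quartile, median-of-ratios or TMM scaling maternal BSp replicate 2 also lay below both controls. Basal epithelial markers were also lower in every maternal BSp library than in both controls in sum, and lowest in replicate 3, and their part in the Cxcl16 and Cx3cl1 levels was not tested. Cxcl16 shares 552 exon bases with Zmynd15 on the opposite strand, which averaged 11.2 normalised reads.

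Cx3cl1, the CX3C chemokine that binds Cx3cr1 on monocytes and macrophages, lies at chr8:94772009-94782427. It was the steadiest of the 7 tested chemokines. It measured 80.1, 103 and 73.4 normalised reads in maternal BSp replicates 1, 2 and 3, and 116 and 123 in control replicates 1 and 2. All maternal BSp libraries lay below both controls, as for 9.21% of tested genes. Among the 7 tested chemokines this separation was found in 1, Cx3cl1, in the deposited values, and it was also seen with upper quartile, median-of-ratios and TMM scaling, where the share of all tested genes was 16.5%, 14.6% and 11.4%. The mean was 85.3 ± 15.3 in maternal BSp (SD, n = 3) and 120 ± 5.26 in control (SD, n = 2). The log2 fold change was -0.50 (SE 0.33, limma adjusted p = 0.567), with a 95% interval from -1.26 to 0.26, and lay between -0.73 and -0.40 under the 19 alternatives. The ratio of Cxcl16 to Cx3cl1 was 1.50, 2.53 and 0.611 in maternal BSp replicates 1, 2 and 3, and 1.97 and 1.89 in control replicates 1 and 2, so these transcripts did not keep a fixed proportion in maternal BSp.

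**Figure D3:**
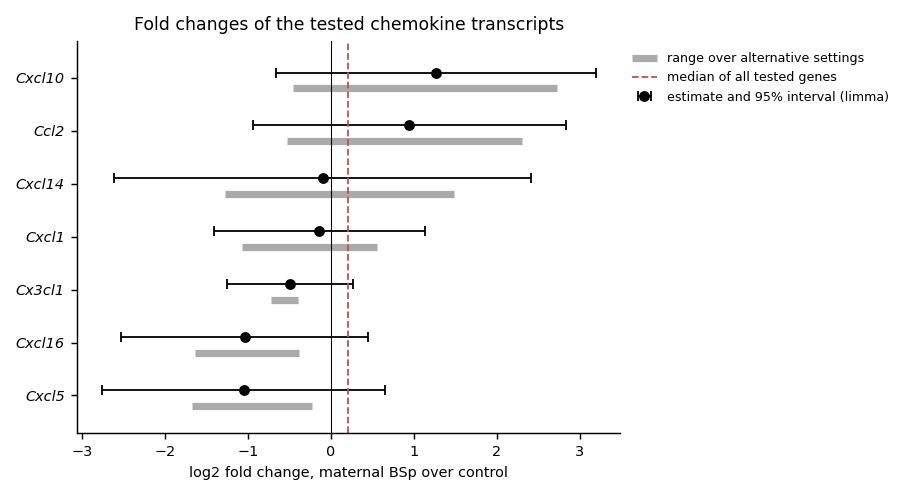
Maternal BSp over control as a log2 fold change (x axis) for the 7 tested chemokine transcripts, with the limma estimate and 95% interval in black and the range over the alternative settings in grey. All 7 intervals include 0, marked by the solid line. The dashed line is the median of all tested genes, 0.21.

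Receptors of these chemokines were mostly scarce, as 4 of 10 reached a mean of 10: Cxcr4, Ackr3, Ccr1 and Cx3cr1. None passed the test over all genes. Cxcr4, the signalling receptor of Cxcl12, measured 15.7, 20.0 and 34.6 normalised reads in maternal BSp replicates 1, 2 and 3, and 5 and 7.64 in control replicates 1 and 2. Every maternal BSp library lay above both controls, as for 23.8% of tested genes, and did so with upper quartile, median-of-ratios and TMM scaling too, where the share was 14.8%, 16.9% and 21.1%. For Cxcr4 the log2 fold change was 1.69 (SE 0.54, unadjusted p = 0.0139, limma adjusted p = 0.407), and 8.01% of tested genes were higher at an unadjusted p under 0.05. Ackr3, the other receptor of Cxcl12, measured 90.0, 82.9 and 8.10 normalised reads in maternal BSp replicates 1, 2 and 3, and 60 and 96.3 in control replicates 1 and 2. It was lowest in maternal BSp replicate 3, the library with the most Cxcr4, and its log2 fold change was -0.91 (SE 0.92, limma adjusted p = 0.707).

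Cx3cr1, the receptor of Cx3cl1, measured 16.2, 7.90 and 8.66 normalised reads in maternal BSp replicates 1, 2 and 3, and 38 and 17.0 in control replicates 1 and 2. Receptor and ligand each lay below both controls in every maternal BSp library, as did 9.21% of tested genes. For Cx3cr1 the margin between maternal BSp replicate 1 and control replicate 2 was small. The log2 fold change of Cx3cr1 was -1.22 (SE 0.56, unadjusted p = 0.0606, limma adjusted p = 0.456). The complement genes C1qa and C1qb, markers of macrophages, also measured less in maternal BSp, at 150 ± 98.9 and 106 ± 62.1 (SD, n = 3) against 354 ± 15.9 and 199 ± 3.54 in control (SD, n = 2). Their limma adjusted p was 0.407 and 0.452, and of the 8 macrophage markers tested 4 were higher and 4 lower. Their part in the Cx3cr1 level was not tested. The myeloid receptor Ccr1 had a log2 fold change of 0.33 (SE 0.66, limma adjusted p = 0.862).

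The receptors Cxcr2, Cxcr3 and Cxcr6 were near 0, and Ccr2 was low. Cxcr2 was at 0.916, 0.556 and 0.321 normalised reads in maternal BSp replicates 1, 2 and 3 and at 0 in both controls, where 0 reads allow up to 3 and 0.849 normalised reads. Cxcr3 was at most 0.393 and Cxcr6 at most 0.654 normalised reads in any library, and Ccr2 at most 2.88. Of the 9 T and NK cell markers only Trbc2 reached a mean of 10, and the 9 summed to 54.0, 45.3 and 7.14 in maternal BSp replicates 1, 2 and 3, and to 32 and 40.5 in control replicates 1 and 2. The receptors of Cxcl1, Cxcl2, Cxcl5, Cxcl10 and Cxcl16 were thus hardly detected in the libraries that held these ligands.

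**Figure D4:**
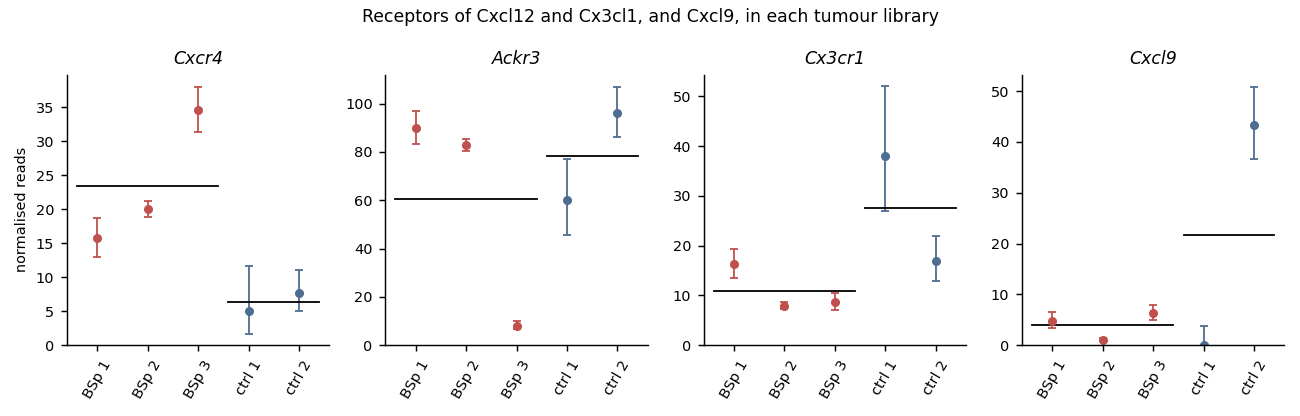
Normalised reads (y axis, linear from 0) of the Cxcl12 receptors Cxcr4 and Ackr3, the Cx3cl1 receptor Cx3cr1 and the chemokine Cxcl9 in maternal BSp libraries (red) and control libraries (blue), with exact 95% Poisson intervals and group means as black lines. Cxcr4 lay higher in every maternal BSp library than in both controls, and Ackr3 was lowest in maternal BSp replicate 3.

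Of the enzymes that process chemokines, Adam17 measured 76.9, 81.3 and 106 normalised reads in maternal BSp replicates 1, 2 and 3, and 59 and 55.2 in control replicates 1 and 2. Every maternal BSp library lay above both controls, as for 23.8% of tested genes, though not with upper quartile scaling. The log2 fold change of Adam17 was 0.60 (SE 0.33, limma adjusted p = 0.504). The authors' deposited table of significant genes lists Adam17 with an unadjusted p of 0.0413 for control against BSp in their analysis of variance. It holds only genes selected as significant, and it lists 0 of the 10 chemokines among its 2447 genes. These are labelled as significant in either, so they need not all have been selected for control against BSp. Adam10 measured 163 ± 40.0 in maternal BSp (SD, n = 3) and 122 ± 19.5 in control (SD, n = 2), with overlapping groups and a limma adjusted p of 0.671. Dpp4, which inactivates Cxcl10 and Cxcl12 by clipping their ends, was at 0.287 to 2.36 normalised reads in maternal BSp and at 0 in both controls. Reads of Dpp4 were 18, 16 and 10 in maternal BSp replicates 1, 2 and 3. A count of 0 allows up to 3 and 0.849 normalised reads in control replicates 1 and 2, so absence from the controls is not shown.

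Other chemokines, listed without the gene copies of Ccl21 and Ccl27, showed no shared direction. Of 26 other chemokines 25 were found in the table and 7 were tested, 3 higher and 4 lower in maternal BSp, with a median log2 fold change of -0.58 and none passing. The most abundant of these 25 were Ccl6 and Ccl9, CC chemokines of myeloid cells, and Ccl20, an epithelial ligand of Ccr6. Ccl9 measured 35.2 ± 21.4 in maternal BSp (SD, n = 3) and 15.2 ± 1.10 in control (SD, n = 2), with a limma adjusted p of 0.480. Ccl6 measured 47.6 ± 40.2 and 19.5 ± 9.22 in the same groups (adjusted p 0.561), with 93.7 in maternal BSp replicate 2. Ccl20 measured 1.38 normalised reads in that library and between 23.3 and 33.4 in the other maternal BSp libraries, against 14 and 55.8 in control replicates 1 and 2. The authors' table of significant genes also lists Pf4 and Xcl1, at unadjusted p 0.0362 and 0.000368 in their analysis of variance. Pf4 measured 3.40, 6.34 and 5.29 in maternal BSp replicates 1, 2 and 3, and 3 and 0.849 in controls. Xcl1 measured 0.262, 0.0359 and 0.0802 against 1 and 0.849, on 1 to 3 reads per library. Both lay below the filter and were not tested in the main fit.

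Genes upstream of the inducible chemokines were described in the same fit. Of 20 listed genes of the NF-kB pathway and its targets 15 were tested, 13 higher and 2 lower in maternal BSp. The rest of the list lay below the filter, with log2 fold changes in both directions. Over all tested genes 63.2% were higher. Of these 15 genes 0 passed and 1 had an unadjusted p under 0.05, against 11.2% of all tested genes. Their median log2 fold change was 0.17, close to that of all genes. Nfkb1, which encodes the p50 subunit, had a log2 fold change of 1.05 (SE 0.45, limma adjusted p = 0.444), and the inhibitor Nfkbia -0.03 (SE 0.35, adjusted p = 0.980).

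The genes most like the 3 most abundant chemokines in pattern were sought among 2217 genes with a mean of at least 100, by the root mean square difference of centred log2 profiles over the 5 libraries. Nearest to Cx3cl1 were Ppp2cb, Gabarap and Ube2r2, with differences of 0.0679 to 0.0793. Nearest to Cxcl16 were Hip1r, Xpnpep1 and Cdkn1a, at 0.225 to 0.265. For Cxcl14 the nearest genes, Cd34, Klk10 and Ptgs2, differed by 0.735 to 0.834. These differences cannot be compared between the 3 chemokines. The measure is small where both transcripts vary little, and Cx3cl1 exceeded only 16.8% of tested genes in spread, against 97.9% for Cxcl14.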

How the data were processed

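RNA of 5 mammary tumours (RIN of at least 7) was sequenced with a strand-specific mRNA kit on a NextSeq500, per the labels' protocols. FastQC, Trim Galore, cutadapt, STAR and DESeq and the build GRCm38 (mm10) are named, per the submitters' processing notes, while neither versions nor an annotation is given in these sources. The authors deposited signal values, read counts per gene multiplied by 1 factor per library so that every library has the same total. Whole reads were recovered from them (100% of values above 0 within 0.1 read). The authors' deposited table of p-values holds 2447 genes.

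Groups followed the titles, with 3 maternal BSp and 2 control libraries. limma 3.58.1 (R 4.3.3, trend) was fitted to log2(value + 1) of genes whose mean over the 5 libraries reached 10, and p-values were adjusted by Benjamini-Hochberg (threshold 0.05), so fold changes understate the change of low genes. Alternatives were other filters, pseudocounts and scalings, each library left out, a replicate block, array weights, edgeR 4.0.16 and DESeq2 1.42.0 on recovered reads, and the libraries with salivary transcripts left out together. Depth limits the controls most, where 3 reads, the limit set for a count of 0, equal 3 and 0.849 normalised reads. The exact 95% Poisson interval of a count of 0 reaches further, to 3.69 and 1.04 normalised reads in control replicates 1 and 2. Poisson intervals and these limits cover counting error only, since reads carry no molecular identifiers. Exon lengths and gene positions come from GENCODE M21.

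The chemokines and the gene lists were chosen with earlier results of these data known. All 10 chemokines, their receptors and the enzymes acting on them may be named, and of every other list the 3 tested genes with the smallest p and the 3 with the largest mean. Cxcl9, Pf4, Xcl1, Ly6g, Ngp, Cd14 and Cd68 were named after their values were seen. The result of 1 further gene list is not reported here.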

Additional observations from a re-analysis of the deposited data

How the results depend on the processing

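No chemokine had an adjusted p under 0.05 where one was computed; Cxcl2 and Ccl7 were tested only with no filter, Cxcl12 only with lower filters, and DESeq2 gave Ccl2 no adjusted p. Cx3cl1 had an unadjusted p of 0.0376 with upper quartile scaling, 0.0499 with median of ratios and 0.0480 with array weights. The count of genes changed, 0 as reported, was 0 to 1 with a library left out (1 without maternal BSp replicate 3), 23 with a replicate block by the description's numbers, 0 with the title's numbers, 699 with array weights and 100 with DESeq2. Those numbers are not stated to pair libraries. The correlations of deviations from group means were 0.09 and -0.09 for the description's numbers and 0.09 and 0.16 for the title's. The deviations of the 2 controls are mirror images by construction, so both values of a numbering are not separate evidence. This check therefore cannot decide whether libraries are paired. With no filter the groups did not overlap for 5476 of 19906 genes, against 3257 of 9870 (33%) with the filter. As deposited 2348 of the 3257 were higher and 909 lower, while upper quartile scaling gave 1457 and 1630 and median of ratios 1665 and 1442. With 1 library left out, log2 fold changes ran from -0.83 to 0.55 for Cxcl1, -0.19 to 2.72 for Cxcl10, -1.28 to 0.89 for Cxcl14 and -0.41 to 2.30 for Ccl2. Cxcl1, at -0.14 as reported, was 0.032 with the description block and without maternal BSp replicate 3, 0.55 without control replicate 2 and 0.20 with array weights. Cxcl10, at 1.27, was -0.19 without control replicate 1 and -0.46 without the libraries with salivary transcripts, and Ccl2, at 0.94, was -0.41 and -0.53. With edgeR and DESeq2 Cxcl10 was 0.46 and 0.48, Ccl2 was 0.14 with both, and Cxcl1 was -0.48 and -0.50. Cxcl14, at -0.10, was 0.89 with the description block and without maternal BSp replicate 3, 0.09 without replicate 2, 0.65 without control replicate 1, 1.48 with array weights, 0.63 with edgeR and 0.60 with DESeq2. Ccl7 was 0.44 and 1.75 without control replicates 1 and 2, and Cxcl2 was 1.12 without the salivary libraries. The cause of these changes was not tested. Cxcl5, Cxcl16 and Cx3cl1 were lower in all settings run. Cxcl2, Cxcl12 and Ccl7, which lay below the filter, were higher in all settings run for them, Cxcl2 by as little as 0.005. Values of 1 or 2 reads in control replicate 1 limit Cxcl2, Cxcl10, Ccl2 and Ccl7.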
